A study of Mus musculus with 2 samples.

Results

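The genes followed here belong to the androgen receptor axis of the prostate: Hoxb13, Foxa1, Tmprss2, Fkbp5, Srd5a2, Steap4, Zbtb16 and Homer2. They were chosen by name, and a probe counted as theirs where its accession mapped to the symbol in RefSeq. By that rule 7 of the 8 genes were matched, with 13 of the 41174 probes on the array, and no probe was matched to Zbtb16, so no value is given for that gene. Of the 13 probes, 11 were detected, and each of the 7 genes had at least 1 detected probe among 13902 detected genes.

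The study compared a pool of ventral prostate RNA from 6 ARR2PB-miR32 transgenic mice with a pool from 6 wild-type mice. All mice were 6 months old and of the FVB/N strain, which the labels also spell FBV/N. ARR2PB is a composite probasin promoter, active in prostate epithelium and itself driven by androgen, so the transgene depends on the same receptor that regulates several of the genes described here. The 2 pools were hybridised together to 2 Agilent arrays in both dyes, the transgenic pool in Cy3 on array 1 and in Cy5 on array 2. The arrays are a technical dye swap of 1 pool per genotype, so no test was possible, no p-value is given, and the spread between mice is unknown. Ratios are log2 of transgenic over wild type, as the mean of both arrays with the technical SD (n = 2 arrays).

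The androgen receptor is a hormone-activated transcription factor that stays bound to Hsp90 and its co-chaperones until it meets a ligand. In the prostate the enzyme steroid 5-alpha reductase turns testosterone into the stronger ligand dihydrotestosterone. The bound receptor enters the nucleus and acts at DNA opened by the pioneer factor Foxa1, together with prostate homeobox factors such as Hoxb13. Its known targets in human prostate cells include TMPRSS2, FKBP5, STEAP4, ZBTB16 and HOMER2. In human prostate cancer cells miR-32 is itself known as an androgen-regulated microRNA.

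The microRNA of the transgene is printed first because its seed defines what it can pair with, and the array has no probe matched to Mir32 (0 probes). The seed, bases 2 to 8, is in capitals. A further 5 mature mouse microRNAs in the RefSeq table (GRCm38.p6) carry the same seed, for 6 names in all out of 1738 mature entries.
miR-32-5p: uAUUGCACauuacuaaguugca
miR-25-3p: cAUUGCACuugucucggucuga
miR-92a-3p: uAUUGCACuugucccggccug
miR-92b-3p: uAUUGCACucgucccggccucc
miR-363-3p: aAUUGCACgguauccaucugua
miR-367-3p: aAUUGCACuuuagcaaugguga
Whether the messenger RNAs of the 7 genes hold sites for this seed was not analysed here.

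By normexp and loess, the processing used unless another is named, none of the 7 genes was called at 2-fold between the pools. The call rule asked for a mean of 2-fold or more by the gene's brightest detected probe, and for 1.5-fold or more that way on both array 1 and array 2. By this rule 0 of 7 genes were higher, against 1.09% of all detected genes, and 0 of 7 were lower, against 3.53%. At these shares a count of 0 among 7 genes is near the background. The 7 mean log2 ratios ran between -0.91 for Steap4 and 0.12 for Hoxb13, with a median of -0.27, against a median of 0.01 over all detected genes. Steap4, Tmprss2 and Srd5a2 were below 0 on both arrays, as were 27.3% of all detected genes, Hoxb13 was above 0 on both, and Foxa1, Fkbp5 and Homer2 had opposite signs on the 2 arrays. Over all detected genes the signs were opposite for 48.1%, so an array alone says little about a small difference.

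**Figure D1:**
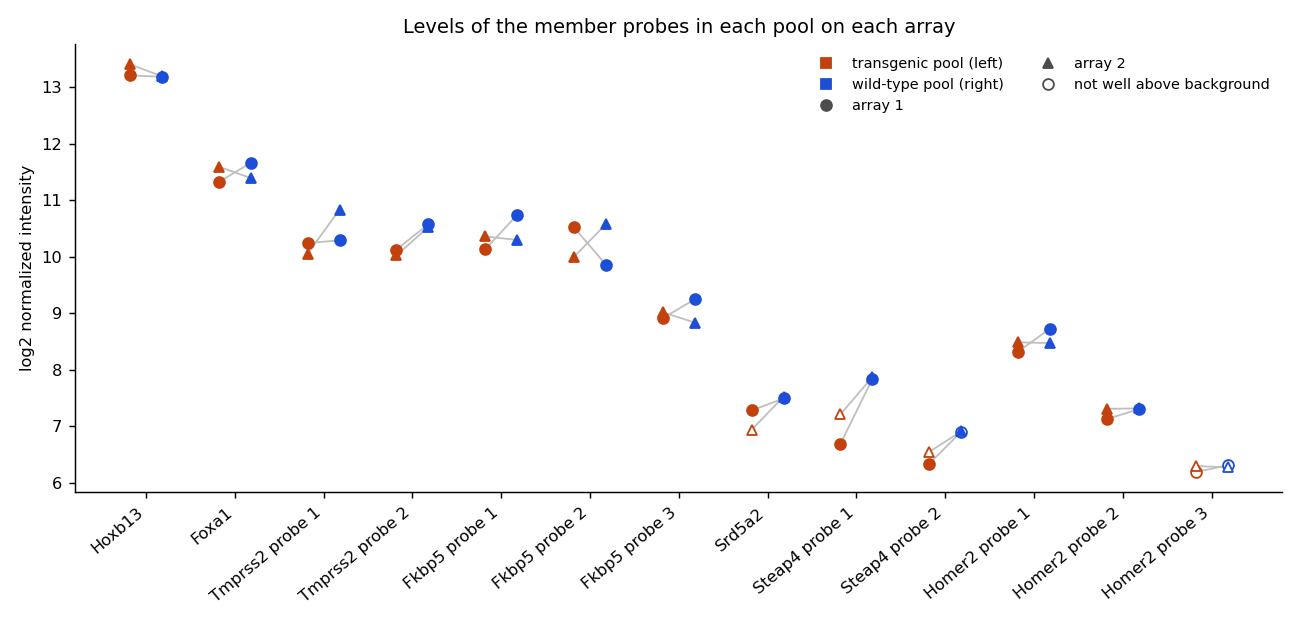
Log2 normalized intensity of the 13 member probes in the transgenic pool (orange, left of each pair) and the wild-type pool (blue, right), with circles for array 1, triangles for array 2, a line joining the pools of an array, and open symbols where the signal was not well above background. Both lines slope upward to the wild-type side for Tmprss2, Srd5a2 and Steap4, while the lines of Fkbp5 probe 2 cross, at 10.51 and 9.99 in the transgenic pool and 9.86 and 10.57 in the wild-type pool.

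The prostate regulators that work beside the receptor lay close to 0. Hoxb13, a posterior homeobox factor needed for normal luminal cells of the mouse ventral prostate, had log2 intensities of 13.21 and 13.40 in the transgenic pool on arrays 1 and 2, against 13.18 and 13.19 in the wild-type pool. Its mean log2 ratio was 0.12 ± 0.13, and 0.33 with median centring in place of loess, and all 4 signals were well above background. Foxa1, the forkhead pioneer factor, stood at 11.32 and 11.59 in the transgenic pool, against 11.66 and 11.39 in the wild-type pool. The pools overlapped, the ratio being -0.34 on array 1 and 0.20 on array 2, with a mean of -0.07 ± 0.38. Of all detected genes, 79.0% lay at least as far from 0 as Foxa1.

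Srd5a2, which encodes type 2 steroid 5-alpha reductase, was somewhat lower in the transgenic pool without reaching the rule. Its log2 intensities were 7.28 and 6.93 in the transgenic pool, against 7.49 and 7.52 in the wild-type pool, so the pools did not overlap on these 2 arrays. The mean log2 ratio was -0.40 ± 0.26, a common size on the array: 12.4% of detected genes were at least as low. The signal was dim, and in the transgenic pool it was well above background on array 1 but not on array 2. Another reductase, Srd5a1, stood at 7.43 and 7.48 in the transgenic pool, against 8.14 and 7.82 in the wild-type pool, a mean log2 ratio of -0.52 ± 0.26. Srd5a3, a reductase that also serves dolichol synthesis, had opposite signs on the 2 arrays and a mean of -0.10 ± 0.45, and its other detected probe gave 0.49. In human prostate SRD5A2 is known mainly from stromal cells. Beside these values, smooth muscle markers had a median log2 ratio of -0.37, with 0 of 9 detected markers called and 7 below 0 on both arrays. Their summed linear intensity on array 1 was 30737 in the transgenic pool, against 30528 in the wild-type pool. On array 2 it was 24999 against 46098, so the sum was lower in the transgenic pool on array 2 alone. Tagln, a bright marker in that sum, stood at 0.77 on array 1 and -1.30 on array 2. Fibroblast markers had a median of -0.70, with 2 of 8 lower (Col3a1 and Lum) and 7 below 0 on both arrays, and Mfap5 was the marker not detected. Their summed intensity on array 1 was 14558 in the transgenic pool, against 15326 in the wild-type pool. On array 2 it was 9015 against 35399. The brightest of them, Dcn, made up most of these sums and stood at 0.13 on array 1 and -2.27 on array 2. Basal epithelium markers, outside the stroma, also had a low median of -0.44, with 0 of 8 detected markers called and 8 below 0 on both arrays. The part of stromal or basal RNA in the Srd5a2 ratio was not tested, and fewer cells of a type cannot be told apart from less RNA per cell in pooled tissue.

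Fkbp5 encodes FKBP51, an Hsp90 co-chaperone of steroid receptors and a target of both the androgen and the glucocorticoid receptor. All 4 signals of each of its 3 probes were well above background. The brightest had log2 intensities of 10.13 and 10.36 in the transgenic pool, against 10.74 and 10.29 in the wild-type pool, so the pools overlapped. Its mean log2 ratio was -0.27 ± 0.48, and the other 2 probes gave 0.04 ± 0.88 and -0.08 ± 0.36. All 3 means lay closer to 0 than their technical SD. No difference of Fkbp5 between the pools was detectable with 2 arrays.

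Tmprss2 is a membrane-bound serine protease of the prostate epithelium, whose human promoter drives the ERG fusions of prostate cancer. Both of its probes had a slightly lower mean in the transgenic pool, but on array 1 the brightest showed little difference. The brightest probe had log2 intensities of 10.24 and 10.05 in the transgenic pool, against 10.29 and 10.83 in the wild-type pool. The second probe had 10.12 and 10.02 in the transgenic pool, against 10.57 and 10.52 in the wild-type pool, and on each probe the pools did not overlap. For the brightest probe the log2 ratio was -0.05 on array 1 and -0.78 on array 2, with a mean smaller in size than its technical SD. The second probe gave -0.45 and -0.50. The mean log2 ratios were -0.41 ± 0.52 and -0.48 ± 0.04, or 1.33-fold and 1.39-fold lower in the transgenic pool. These sizes are common on the array: 11.8% of detected genes were at least as low as the brighter probe. Markers of luminal epithelium, where the gene is expressed, had a median of 0.36 with 1 of 13 lower (Prom1) and 7 above 0 on both arrays. Their summed intensity on array 1 was 96287 in the transgenic pool, against 101370 in the wild-type pool. On array 2 it was 111664 against 88129, so the direction of the sum differed between the arrays.

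Steap4 had the largest difference of the 7 genes. It encodes a membrane metalloreductase for iron and copper, induced by androgen in human prostate cancer cells and by tumour necrosis factor in mouse fat cells. Its brighter probe had log2 intensities of 6.68 and 7.21 in the transgenic pool, against 7.83 and 7.87 in the wild-type pool, and the pools did not overlap. The mean log2 ratio was -0.91 ± 0.35, or 1.87-fold lower in the transgenic pool, just short of the rule, and 4.14% of detected genes were at least as low. The signal was well above background in the wild-type pool on both arrays but in the transgenic pool on array 1 alone. The second, dimmer probe did not count as detected, and it stood at -0.46 ± 0.14.

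The size of the Steap4 ratio differed between ways of processing. With background subtracted and nothing else done, the brighter probe gave an intensity of 65.0 in the transgenic pool, against 302.5 in the wild-type pool, when each was in Cy3, and 37.5 against 109 when each was in Cy5. With Feature Extraction's own processed signals, which differ in background correction, offset and normalization at once, the log2 ratios of the brighter probe were -1.86 and -1.41 on arrays 1 and 2, a mean of -1.64. On array 2 the transgenic signal was not well above background, so that value rests on a dim signal, and which step moved the ratio was not tested. By those signals Steap4 passed the rule, 1 of 7 genes lower and 0 higher, where 6.75% of all detected genes were called lower and 2.22% higher. It was also the only one of the 7 to pass a looser rule of a 1.5-fold mean with the same sign on both arrays, which called 7.75% of genes lower and 3.4% higher.

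Leukocyte markers were lower in the same pool as Steap4, the transgenic one. Of 11 detected markers 8 were called lower and 0 higher, with a median log2 ratio of -1.61. Ptprc, the pan-leukocyte surface protein CD45, stood at -2.57, and Itgam and Klrb1c were not detected. The summed intensity of the list was 1892 to 2469 in the transgenic pool, against 9510 to 10618 in the wild-type pool. Adipocyte markers had a median of 0.09 with 0 of 8 called, a summed intensity of 17975 to 19952 in the transgenic pool, against 20640 to 21328 in the wild-type pool, and Lep not detected. The part of either cell type in the Steap4 ratio was not tested.

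Homer2, a scaffold protein first known from synapses, differed little. Its brightest probe had log2 intensities of 8.32 and 8.48 in the transgenic pool, against 8.72 and 8.47 in the wild-type pool, and the mean log2 ratio was -0.20 ± 0.30. The second probe gave -0.09 ± 0.12. The third probe was well above background in neither pool, so it measured no ratio. Zbtb16, the zinc finger repressor PLZF and a shared target of androgen and glucocorticoid receptors, remains without a value.

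**Figure D2:**
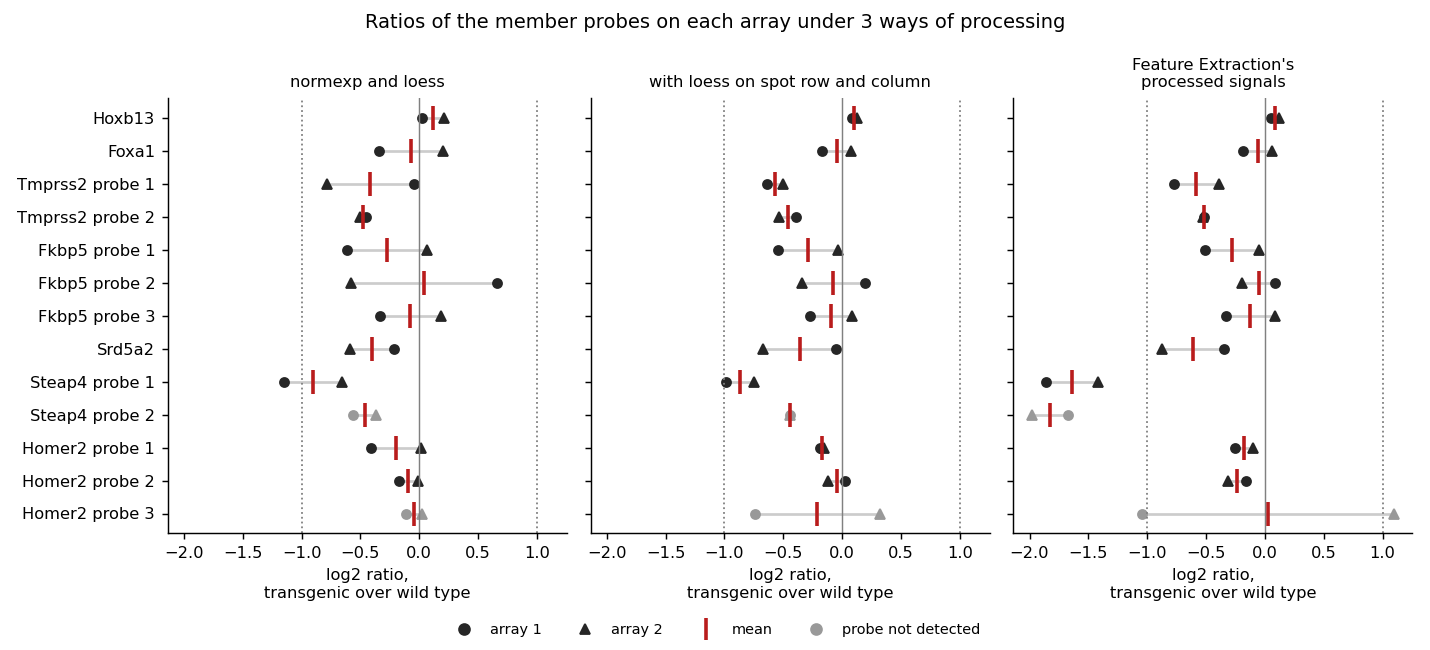
Log2 ratio of transgenic over wild type for the 13 member probes on array 1 (circles) and array 2 (triangles) with their mean (red bar), by normexp and loess, by the same with a further loess on spot row and column, and by Feature Extraction's processed signals. Dotted lines mark 2-fold. Steap4 is the member farthest to the left in each panel, and the 2 arrays lie closer together for Tmprss2 probe 1 and Fkbp5 probe 2 in the middle and right panels than in the left one.

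Part of the disagreement between arrays followed the position of a spot. Among spots with both dyes well above background, the median log2 ratio of Cy5 over Cy3 after loess on array 1 was 0.21 in rows 1 to 106 and -0.53 in rows 426 to 532. On array 2 the same rows stood at 0.10 and -0.25. The trend ran the same way on both arrays, so the dye swap cancels much of it in the mean and leaves it in the technical SD. In rows 426 to 532 it was larger on array 1 than on array 2, so part of it stays in the mean there. Fkbp5 probe 2, in row 429 of 532, and Tmprss2 probe 1, in row 463, lay in the last of these rows. A loess on spot row and column was therefore added as an alternative, chosen after the data had been seen. With it Fkbp5 probe 2 gave 0.20 and -0.34 on arrays 1 and 2, in place of 0.66 and -0.58, and Tmprss2 probe 1 gave -0.63 and -0.50, in place of -0.05 and -0.78. The mean of Tmprss2 was then -0.57, in place of -0.41, and that of Steap4 -0.87, in place of -0.91. Of the 7 genes, 5 were then below 0 on both arrays, where 31.9% of all detected genes were, and 0 of 7 passed the 2-fold rule. Across all detected genes, which are not independent replicates, the 2 arrays correlated at Pearson r = 0.682 with the position loess and r = 0.513 without it, and at 0.746 with Feature Extraction's processed signals.

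**Figure D3:**
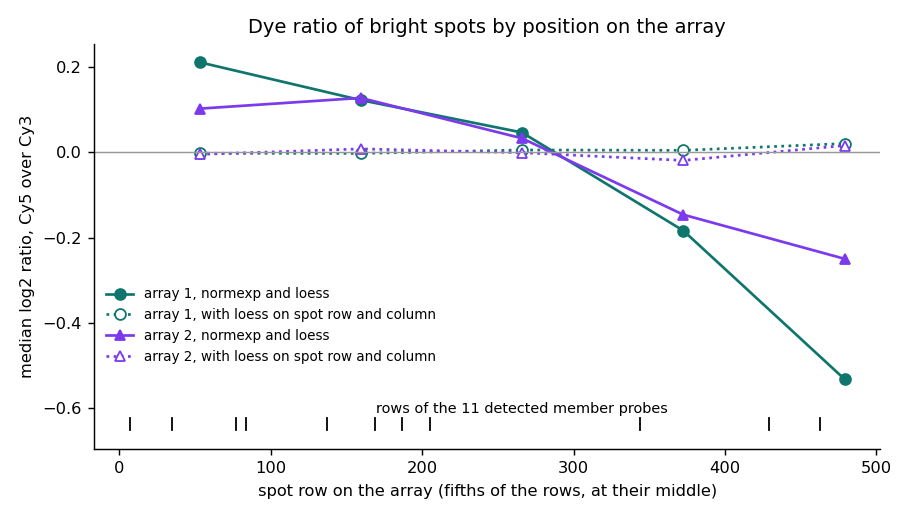
Median log2 ratio of Cy5 over Cy3 in each of 5 equal bands of spot rows for array 1 (circles) and array 2 (triangles), by normexp and loess (solid lines) and with a loess on spot row and column added (dotted lines). Ticks at the bottom mark the rows of the 11 detected member probes, of which the last 2 lie where array 1 stands at -0.53 and array 2 at -0.25.

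The promoters of the members were read from RefSeq (GRCm38.p6, windows of 300 bases lying mostly before a transcription start) because the receptor, Foxa1 and Hoxb13 act through known DNA motifs. The table held 7 windows for 6 of the members and none for Hoxb13 or Zbtb16. The hexamer AGAACA, the core that 1 receptor molecule contacts, was searched on both strands like the other motifs. It was in 0 of the 7 windows, against 19.0% of 32851 windows of all genes. A pair of such hexamers in inverted order, 3 bases apart, was in none of the 7 either, against 0.00913% of all. The HOXB13-type motif CAATAAA was in 0 of 7 windows, against 4.6% of all, and the forkhead motif TGTTTAC in 1 of 7, against 3.65%. The paired motif holds the hexamer, and the other letters are separate motifs. Known receptor elements of human FKBP5 and TMPRSS2 lie in introns and in a distant upstream enhancer, outside such windows. The single match is in the promoter of Foxa1 itself, where it is in capitals as its reverse complement, and the window of Steap4 is shown as that of the member with the largest difference, chosen after its values were seen, with no match to capitalise. Each is written 5′ to 3′ on the gene's strand.
Foxa1, chr12:57546062-57546361, minus strand: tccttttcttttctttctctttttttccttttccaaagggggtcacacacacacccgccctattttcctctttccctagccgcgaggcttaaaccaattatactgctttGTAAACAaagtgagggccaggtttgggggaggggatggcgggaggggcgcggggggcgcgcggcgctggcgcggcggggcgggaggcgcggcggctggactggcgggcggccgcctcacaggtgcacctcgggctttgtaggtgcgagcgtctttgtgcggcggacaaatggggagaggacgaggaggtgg
Steap4, chr5:7960222-7960521, plus strand: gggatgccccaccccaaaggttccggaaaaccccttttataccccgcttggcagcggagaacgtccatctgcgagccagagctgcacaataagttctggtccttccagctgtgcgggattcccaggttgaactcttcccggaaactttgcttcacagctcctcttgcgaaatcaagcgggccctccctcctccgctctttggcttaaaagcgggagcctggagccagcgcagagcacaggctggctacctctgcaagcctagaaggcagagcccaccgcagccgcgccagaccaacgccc

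Genes around the members in the pathway showed few calls. Among 32 detected genes of the receptor complex and its cofactors, 0 were higher and 0 lower, and the median log2 ratio was 0.04. Ncoa4, a receptor coactivator that also steers ferritin to breakdown, had opposite signs on the 2 arrays, with a mean of -0.41 ± 1.22. Fkbp4, the co-chaperone FKBP52 and a relative of Fkbp5, stood at 0.19 ± 0.09 and Gata2, a partner factor of the receptor, at 0.05 ± 0.36. The other detected probe of Fkbp4 did not go the same way and stood at -0.54, and the other detected probe of Gata2 stood at 0.41. Foxa2, the forkhead factor of neuroendocrine prostate cells, was not detected. In steroid hormone metabolism 0 of 17 detected genes were called in either direction, with a median of -0.02.

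Among 75 detected androgen-induced genes, compiled from what is known of human prostate cancer cells and mouse prostate, 3 were higher and 0 lower. These 3 are 4% of the list, beside 1.09% of all detected genes, where 3.53% of all were lower, and its median was -0.05. Among them were Ank (Ankh in human), an exporter of ATP and pyrophosphate, at a mean log2 ratio of 1.81 ± 0.56, and Acsl3, a fatty acyl-CoA ligase, at 1.11 ± 0.32. With Feature Extraction's signals 3 of the 75 were higher and 3 lower, 4% each, beside 2.22% and 6.75% of all detected genes. Pbsn, the probasin gene that lent the transgene its promoter and a strongly androgen-dependent product of the gland, had log2 intensities of 15.40 and 15.78 in the transgenic pool, against 15.73 and 15.41 in the wild-type pool. The pools overlapped and the mean log2 ratio was 0.02 ± 0.50.

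Fkbp5 and Zbtb16 are also glucocorticoid targets, so other such genes were set beside them. Of 23 detected glucocorticoid-responsive genes 3 were higher and 1 was lower, with a median of -0.11. These are 13% of the list higher, beside 1.09% of all detected genes, and 4.35% lower, beside 3.53%. The higher ones were the metallothioneins Mt1 (2.05 ± 0.55) and Mt2 (2.04 ± 0.71), and Ddit4, an inhibitor of mTOR signalling, which was 2.14-fold higher in the transgenic pool. Whether the probes of the related genes Mt1 and Mt2 share signal was not tested. The lower one was Cebpd, a leucine zipper factor of the acute-phase response, at -1.78 ± 0.12. The kinase gene Sgk1 had log2 intensities of 11.84 and 11.94 in the transgenic pool, against 12.73 and 12.66 in the wild-type pool, a mean log2 ratio of -0.81 ± 0.13 that missed the rule. Tsc22d3, the glucocorticoid-induced leucine zipper GILZ, stood at -0.29 ± 0.09, and the glucocorticoid receptor gene Nr3c1 at -0.18 ± 0.55. The list held calls in both directions, and Fkbp5 was called in neither.

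Homeobox genes Hoxa13 and Hoxd13 differed by more than Hoxb13 did. Hoxa13, a posterior Hox gene of the urogenital tract, had log2 intensities of 8.75 and 8.28 in the transgenic pool, against 7.35 and 7.21 in the wild-type pool. It was called higher, at 1.24 ± 0.23, and its other detected probe gave 0.71. Hoxa13 was the only gene called of 11 detected Hox genes, out of 35 on the array besides Hoxb13. That is 9.09% of the detected ones higher, beside 1.09% of all detected genes, and 0% lower, beside 3.53%. Hoxd13, whose loss together with that of Hoxb13 alters the mouse ventral prostate, stood at 7.63 and 7.80 in the transgenic pool, against 8.30 and 8.45 in the wild-type pool, a mean of -0.66 ± 0.02 that missed the rule. The Hox median was 0.08. Of 30 detected prostate transcription factors Barx2, a homeobox factor of epithelia, was the only one called, higher at 1.40 ± 0.04, and the median was 0.03. That is 3.33% of this list higher, beside 1.09% of all detected genes, and 0% lower, beside 3.53%.

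Relatives of the members by protein family held no call by the 2-fold rule. Of 13 detected FKBP genes 0 were higher and 0 lower, with a median of -0.09. Steap1, another protein of the Steap family, stood at 0.56 ± 0.93 with opposite signs on the 2 arrays, and Steap2 and Steap3 were not detected. Homer1 stood at 0.24 ± 0.18 and Homer3 at -0.09 ± 0.41. Among 7 detected membrane serine proteases and inhibitors, the relatives of Tmprss2, and 16 detected BTB zinc finger relatives of Zbtb16, 0 were called, with medians of 0.17 and 0.01. The median of the proteases was -0.03 on array 1 alone and 0.58 on array 2 alone. Hpn, the membrane protease hepsin, stood at -0.81 ± 0.12 and was called lower with Feature Extraction's signals, at -1.09.

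**Figure D4:**
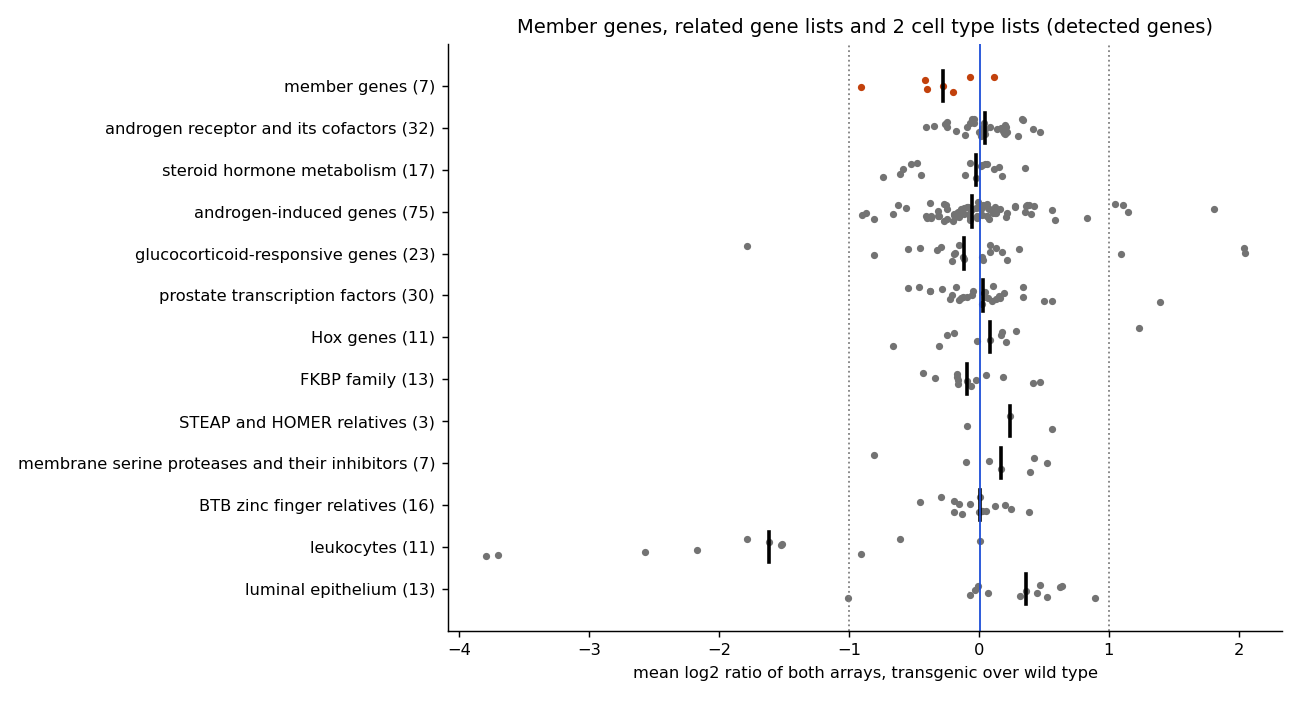
Mean log2 ratio of transgenic over wild type for the 7 member genes (orange), the detected genes of 10 related lists and 2 cell type lists (grey), with list medians as black bars, the median of all detected genes as a blue line and 2-fold as dotted lines. The member genes run between -0.91 and 0.12 and none crosses the 2-fold lines, while 8 of 11 leukocyte markers are called lower.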

How the data were processed

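Per the file headers, the scans were quantified in Feature Extraction 11.0.1.1 from Agilent, on an array design annotated to mm9. The deposited scanner files give intensity per dye as median pixel values, with processed intensities and a log10 ratio of Cy5 over Cy3 made by that program. The deposited series table holds log2 ratios of 15511 probes, whose scale and direction were found from the scanner files: its columns differed from the processed ratio of transgenic over wild type by constants of -0.08 and -0.05, with a median of 0 each. What filter left these probes is not given.

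Background was corrected by normexp (offset 50) and ratios by loess within each array, with control and outlier spots at weight 0 (limma 3.58.1, R 4.3.3). Levels are log2 intensities after loess and Aquantile scaling. A probe was detected where at least 1 pool was well above background on both arrays, which held for 18072 probes, and a gene was represented by its brightest detected probe. No spot was saturated (0 on each array). The mean local background was 26.2 and 26.4 in Cy3 and 114 and 117 in Cy5, and the number of arrays limits the precision. Symbols came from RefSeq (GRCm38.p6) for 27816 probes, and 13358 were unmatched.

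The members and gene lists were chosen with earlier results of these data known. Named genes were all members, genes of the fixed lists that passed the call rule, and 18 genes fixed by name, of which some are not reported here. With 1 pool per genotype no likeness between genes was computed. The ventral prostate markers were detected, 6 of 6, with Sbp, Sbpl and Spink1 lower in the transgenic pool, and no seminal vesicle Svs gene was detected. Of 3 detected genes in the list for seminal vesicle and other lobes, Tgm4 was higher (2.12) and Ceacam10 lower (-2.60), and the third was Spink1. The source labels name ventral prostate, while the growth text speaks of ventral or dorsolateral lobes, so the purity of the lobe was not settled.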

Additional observations from a re-analysis of the deposited data

How the results depend on the processing

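The call counts over all genes moved with the processing. With Feature Extraction's processed signals 309 genes were higher and 938 lower, and with a mean of 1.5-fold 472 and 1077, against 151 and 491. With detection in both pools 267 were lower, and with median centring in place of loess 99 were higher. On a single array 271 to 450 genes were higher and 589 to 599 lower, without replicate 1 or replicate 2. Of the 7 members, 1 was lower (Steap4) with Feature Extraction's signals, 1 with a mean of 1.5-fold and 0 to 1 on a single array, and 0 under the other settings. The causes were not tested, except that the looser rule of a 1.5-fold mean admits more genes by construction. Of the 7 member ratios 6 kept their sign under each alternative of processing, and Foxa1 did not, at 0.06 under median centring, where Hoxb13 stood at 0.33. On both single arrays 4 of 7 kept it. Fkbp5, Foxa1 and Homer2 did not, at 0.06, 0.20 and 0.01 on array 2 alone. Steap4 ran between -1.64 and -0.74 over the processing alternatives, Srd5a2 between -0.61 and -0.31, and Tmprss2 between -0.65 and -0.34. Srd5a2 and Steap4 had no value in the series table or with detection in both pools. Of 10 list medians 4 kept their sign under each alternative of processing. No paired analysis was possible because both arrays carry the same pair of pools. Signal near background limits Steap4 and Srd5a2 most.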
